A study of Mus musculus with 96 samples.

Results

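The cytosolic ribosomal protein genes of the mouse were described across 96 single cells of the early haematopoietic lineage. Members were the genes whose symbol is Rpl or Rps and a number, which a letter a, x, y or l and a digit may follow. Rplp0, Rplp1, Rplp2 and Rpsa were added, and pseudogene names and the Rps6k kinases were left out. The rule found 82 of the 19836 genes in the table. Of these, 46 encode proteins of the large subunit, 31 encode proteins of the small subunit, and 5 are paralogues named after a main gene (Rpl3l, Rpl7l1, Rpl22l1, Rpl39l and Rps27l). Altogether 80 members had at least 30 reads over all cells and were compared between groups. The other two were Rpl3l, with 8 reads in 2 yolk sac cells, and Rpl39l, with 20 reads in 2 cells, of which 19 came from 1 AGM cell.

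Each ribosome holds a single copy of most of these proteins, so the genes are usually transcribed together and at high levels. Their mRNAs are short, lack long untranslated regions and begin with a run of pyrimidines, the 5′ terminal oligopyrimidine (TOP) motif, through which mTOR signalling controls their translation. Blood formation is known to be sensitive to the dose of single members. Loss of 1 copy of RPS19, RPL5, RPL11 or several others causes Diamond-Blackfan anaemia, and adult haematopoietic stem cells keep protein synthesis low.

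The study followed haematopoietic stem cells (HSCs) and their forerunners, called pre-HSCs, in C57BL/6 embryos, 1 sorted cell per library. The E11.5 embryo gave 48 pre-HSCs of the AGM (aorta-gonad-mesonephros) region and 16 of the yolk sac, both sorted as Ter119-CD11b-CD144+c-kit+EPCR+. Fetal liver HSCs numbered 16 at E12.5, sorted as Ter119-Sca-1+c-kit+EPCR+, and 16 at E14.5, sorted as Ter119-Sca-1+c-kit+CD48-CD150+. Tissue, age and gate changed together between AGM and E12.5 liver, and age and gate between the liver stages, so that these cannot be told apart. Animals and litters are not named in the labels. Every group therefore counted as 1 sample, no test was possible, and the intervals below cover counting error only.

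The 4 groups held 60280645, 22306075, 19053123 and 20585452 reads, in the order AGM, yolk sac, E12.5 liver and E14.5 liver. Single cells had 250235 to 1926882 reads and 1011 to 11094 genes detected. The E12.5 liver cell with the fewest genes stood apart, with reads of 69 members against 79 or more in each of the other 95 cells. Reads of Cdh5, which encodes CD144, were present in 45 of 48 AGM cells and in 7 of 16 yolk sac cells, although the gate named CD144 for both tissues. All 7 listed haematopoietic markers had reads in every group. Their summed level had a median of 1713 CPM (a gene's reads per 1000000 reads of the library) in AGM, 1698 in yolk sac, 1153 in liver at E12.5 and 1284 at E14.5. Summed levels of the 7 endothelial markers had medians of 817, 366, 643 and 287 CPM in the same order, and 6 of the 7 had reads in each liver group, with Kdr at 0 in E12.5 liver and Cldn5 at 0 in that of E14.5. The 7 erythroid markers had medians of 21.2, 28.8, 548 and 245 CPM, and reached 222691 CPM in an E14.5 cell. All 4 genes listed as hepatocyte markers (Afp, Ttr, Apoa1 and Apoa2) were at 0 in E14.5 liver cells. In yolk sac all 4 had reads, in 8 of 16 cells and up to 780.3 CPM, and these need not come from hepatocytes. What part these other transcripts have in the results below was not tested. Macrophage markers reached at most 4388 CPM in a cell, and Csf1r and Mrc1 were at 0 in E14.5 liver.

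The sequences at the start sites are shown first, since the pyrimidine run is the feature that these genes are best known to share. RefSeq start sites of build GRCm38.p6 matched 62 members by symbol. A gene was counted when a C within 10 bases of the annotated start began a stretch of at least 8 bases of only C and T on the coding strand, also where that stretch was part of a longer run. It was found in 24 of the 62 members, or 38.7%, against 9.43% of 27025 genes with a start site in the same table. On the opposite strand the same search found 6.45% of the members and 11.3% of all genes. Each sequence below spans the 15 bases before the annotated start and the 15 bases from it on, with the whole unbroken run of C and T in capitals. The run of Rpl34, 20 bases long, begins before the first base shown. The first 4 belong to short members that were low in yolk sac cells, and the last 3 belong to long members that were not.
Rps27: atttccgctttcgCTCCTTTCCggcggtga
Rps26: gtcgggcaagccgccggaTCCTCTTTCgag
Rpl34: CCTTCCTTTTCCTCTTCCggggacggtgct
Rplp2: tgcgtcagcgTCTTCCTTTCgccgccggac
Rpl15: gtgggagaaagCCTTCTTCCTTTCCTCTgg
Rpl7a: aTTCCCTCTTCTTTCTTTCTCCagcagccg
Rps6: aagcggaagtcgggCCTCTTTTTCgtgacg

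These lie on GRCm38.p6 at chr3:90213634-90213663 (minus strand) for Rps27 and chr10:128626492-128626521 (minus) for Rps26. Rpl34 is at chr3:130730323-130730352 (minus) and Rplp2 at chr7:141447636-141447665 (plus). Rpl15 is at chr14:18270972-18271001 (minus), Rpl7a at chr2:26910792-26910821 (plus) and Rps6 at chr4:86857353-86857382 (minus). Runs of this kind stood at members of every size, 11 of them short, 6 middle and 7 long by the length classes used below. The ETS-type sequence CCGGAAGT, searched on both strands of the 300 bases around the start, was found at 12 members, or 19.4%, against 4.31% of all genes. A match is a description of these letters and not a measured site. Only annotated starts were searched, so a gene without a match was not shown to lack the run at the start of its mRNA.

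Ribosomal protein reads made up a large part of every cell's library, and the part was smallest in the E14.5 liver cells. Pooled over cells, the 82 genes took 9.36% of reads in AGM (exact 95% binomial interval 9.36 to 9.37), 7.93% in yolk sac (7.91 to 7.94), 9.02% in liver at E12.5 (9.01 to 9.03) and 7.02% at E14.5 (7.004 to 7.03). Single AGM cells ranged from 4.29% to 15.7% with a median of 9.64%, and yolk sac cells from 4.54% to 13.6% with a median of 7.74%. E12.5 liver cells ranged from 4.95% to 16.3% with a median of 9.13%, and E14.5 liver cells from 3.50% to 9.83% with a median of 7.41%. All 4 ranges overlapped. A share of reads says nothing of the amount of RNA per cell. The share was lower in cells with more reads, with r = -0.49 over 48 AGM cells and -0.63 over 16 yolk sac cells (rho = -0.48 and -0.64), against -0.14 and -0.26 over the 16 cells of E12.5 and of E14.5 liver, and the part of depth in the differences was not tested. The shares of 14 of the 16 E14.5 cells were below the E12.5 median, and 23 of the 48 AGM cells were above the highest E14.5 cell.

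**Figure D1:**
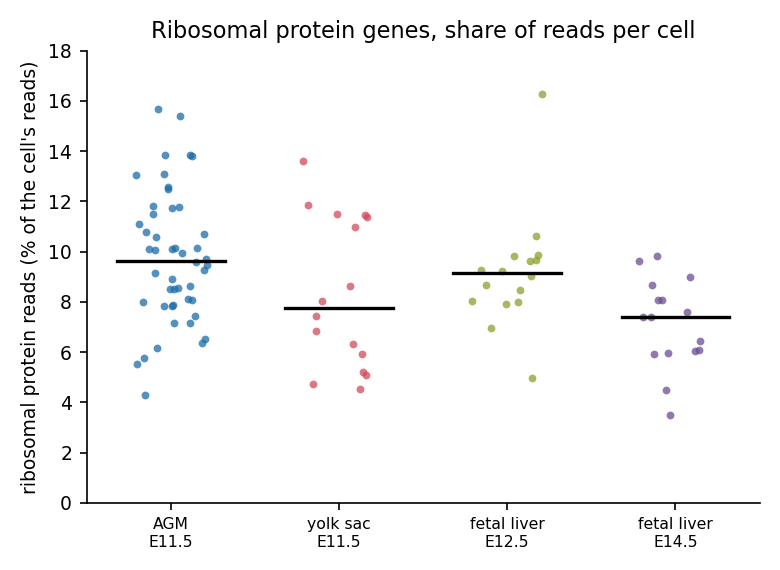
Share of each cell's reads (vertical axis, %) that came from the 82 ribosomal protein genes, by group. Each point is 1 cell, spread sideways for visibility, and the bar is the median. The E14.5 liver cells end at 9.83%, while 23 of 48 AGM cells lie above that value, and the yolk sac cells fall into a set at or below 8.62% and a set at or above 10.99%.

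Globin reads differed between the groups and share the same denominator. They took 2.83% of reads in E14.5 liver and less than 0.1% in each other group. In 4 of the 16 E14.5 cells globin took 4.42% to 23.1% of reads, and these cells had ribosomal protein shares of 3.50% to 7.41%. With mitochondrial and globin reads left out of the total, the pooled share was 7.26% in E14.5 liver and 9.09% in E12.5 liver. Within the 16 E14.5 cells the ribosomal protein share was lower in cells with a higher share of reads from 24 proliferation genes (Pearson's r = -0.86, Spearman's rho = -0.87, n = 16 cells). In AGM the same description gave r = -0.24 over 48 cells, in yolk sac r = -0.39 over 16 cells and in E12.5 liver r = -0.34 over 16 cells. Both shares have the cell's total reads as denominator, and the parts of depth and globin in the relation were not tested.

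The large and small subunits kept nearly the same proportion in every group. Reads of large subunit genes divided by reads of small subunit genes gave 1.36 for AGM, 1.38 for yolk sac, 1.36 for E12.5 liver and 1.38 for E14.5 liver. Single cells ranged from 1.18 to 1.56 in AGM, 1.28 to 1.58 in yolk sac and 1.20 to 1.49 in E14.5 liver. E12.5 liver cells ranged from 0.748 to 1.49, and the lowest value belonged to the cell with 1011 genes.

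Rplp0, the scaffold of the P-stalk that recruits translation factors, held 4.01% of all member reads. Rpl13, Rps2 and Rpl4 were also among the members with the most reads, at 3.68%, 3.18% and 2.97%. Divided by coding length, the order of these changed, with 614597 reads per kilobase over all cells for Rpl13, 446437 for Rplp0, 382914 for Rps2 and 250087 for Rpl4. Reads were present in all 96 cells for 67 of the 80 members and in 95 cells for 12, and Rpl7l1 was seen in the fewest cells, 92. At such depth the presence of a read did not separate the groups.

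Between yolk sac and AGM, the ratio of a member followed the length of its coding sequence. Log2 ratios were taken of pooled CPM after adding 1 CPM. The median over the 80 members was -0.35, against -0.20 over the 15239 genes with at least 30 reads. Each of the 80 had at least 17163 reads, so the 15239 genes, here and in the shares past a fold below, are not matched for level. Over 3640 other genes with a mean of at least 50 CPM the median was 0.06. Of the 80, 12 were above 0 and 68 below. Ordered by coding length, the 26 short members (75 to 396 nt) had a median log2 ratio of -0.78, the 28 middle members (399 to 576 nt) -0.36 and the 26 long members (582 to 1257 nt) -0.03. All 54 short and middle members were below 0, and 12 of 26 long members were above it. Spearman's rho between coding length and log2 ratio was 0.89 over the 80 members, which share all libraries, and 0.65 with transcript length. Leaving out each AGM or yolk sac cell in turn gave a rho of 0.87 to 0.91. The classes and this relation were chosen after the values were seen, and lengths are of the GENCODE M21 principal transcripts.

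Other genes showed the same order with smaller differences. Among 3640 genes outside the set with a mean of at least 50 CPM, the yolk sac to AGM median was -0.51 for 138 genes with coding sequences up to 300 nt and -0.21 for 308 genes above that and up to 450 nt. It was -0.01 for the next 371 genes, up to 600 nt, 0.06 for 689 genes up to 900 nt and 0.16 for 2134 longer genes. The members in the same classes had medians of -0.96 (n = 10), -0.56 (n = 28), -0.24 (n = 19), -0.03 (n = 20) and 0.07 (n = 3). In each of the 5 classes the members' median lay below that of the other genes.

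**Figure D2:**
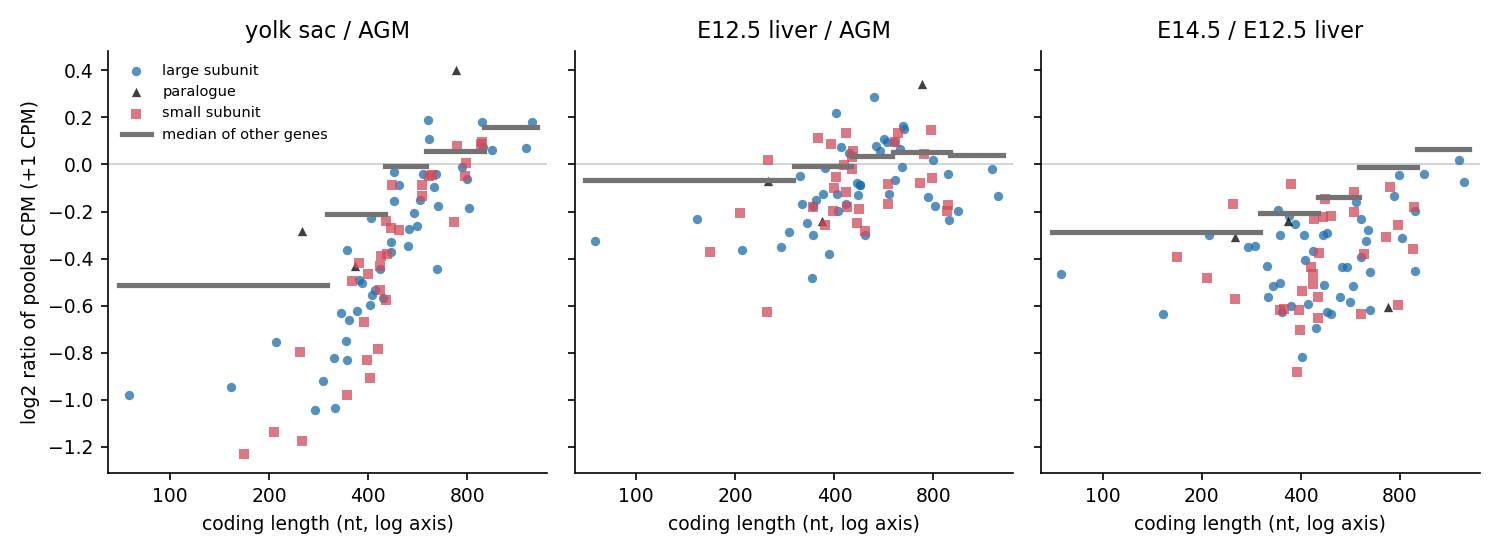
Log2 ratio of pooled CPM (after adding 1 CPM, vertical axis) against coding length in nucleotides (log axis) for the 80 ribosomal protein genes, in 3 comparisons. Blue circles are large subunit genes, red squares small subunit genes and black triangles paralogues, and grey lines are medians of the other genes with a mean of at least 50 CPM in 5 length classes. In yolk sac over AGM the points climb from -1.23 for Rps29 to 0.18 for Rpl4, and the slope is shallower in the panels for E12.5 liver over AGM (rho = 0.41) and E14.5 over E12.5 liver (rho = 0.30).

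Past a 2-fold difference, yolk sac was lower than AGM for 5 of 80 members, or fewer than the 21% of all genes tested that were lower by as much, and higher for none, against 8.61% of all genes. The count rests on single cells: it was 3 without yolk sac cell 1, 2, 4, 6, 7 or 10, and 8 to 11 without cell 8, 9, 11, 12, 14 or 16. At 1.5-fold 22 members were lower, against 35.5% of all genes. The 5 past 2-fold were Rps29, Rps27, Rps28, Rpl37a and Rpl36a. All 5 encode short proteins, and the first 3 are also on the Diamond-Blackfan list.

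Rps29 encodes a zinc-binding protein of the small subunit head (ENSMUSG00000034892, chr12:69157722-69159186). Its level was 228.3 to 2211 CPM in AGM cells with a median of 791, and 44.2 to 1165 CPM in yolk sac cells with a median of 185.5. In E12.5 liver it was 218.9 to 2294 CPM with a median of 621, and in E14.5 liver 238 to 814 CPM with a median of 462. The yolk sac cells were the low group, and 9 of the 16 were below the lowest AGM cell, while the other groups overlapped broadly. Pooled levels were 877 CPM in AGM (exact Poisson 95% interval 869.8 to 885) and 374 in yolk sac (366 to 382), a log2 ratio of -1.23.

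Rps27, which encodes another zinc-binding small subunit protein, had pooled levels of 486 CPM in AGM and 214.7 in yolk sac, a log2 ratio of -1.18. AGM cells ranged from 183.7 to 1615 CPM (median 467) and yolk sac cells from 52.5 to 565 CPM (median 167.7). Again 9 of 16 yolk sac cells were below every AGM cell. E12.5 liver, at 493 CPM, was close to AGM, and E14.5 liver was at 331 CPM.

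Rps28 had a pooled level of 465 CPM in AGM and 211.2 CPM in yolk sac (log2 ratio -1.13), and 10 of 16 yolk sac cells were below the lowest AGM cell. Rpl37a, of the large subunit, had 1018 CPM in AGM and 494 in yolk sac (-1.04), with 9 yolk sac cells below every AGM cell. Rpl36a had 456 and 222.4 CPM (-1.03), with 6 such cells. Rps26 was just short of the 2-fold limit at -0.98, with 605 CPM in AGM and 306 CPM in yolk sac. Rpl41, whose product is the smallest ribosomal protein and whose coding sequence of 75 nt is the shortest here, was also at -0.98.

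The highest ratios belonged to long members. Rpl7l1, a paralogue described further with its pair, was highest at 0.40, with 311 CPM in AGM and 411 CPM in yolk sac. Among the main genes, Rpl4 had 2604 CPM in AGM (2591 to 2617) and 2951 CPM in yolk sac (2928 to 2974), a log2 ratio of 0.18. Its AGM cells ranged from 949 to 5233 CPM (median 2569) and its yolk sac cells from 702 to 4190 CPM (median 2942), so the groups overlapped, with 12 of 16 yolk sac cells above the AGM median. Rpl6 and Rpl13a were also at 0.18 and 0.19, Rpl15 at 0.11 and Rpsa, which also encodes a laminin receptor precursor, at 0.09. Rpl10a, at -0.44, was the lowest of the long members.

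Counted cell by cell, a median of 8 of the 16 yolk sac cells lay below every AGM cell for the short members (range over members 3 to 10), 3 for the middle members (0 to 8) and 0 for the long members (0 to 2). These counts, and those of single genes above, are not given for genes outside the set. Of the 138 other genes up to 300 nt, 113 were also below 0 in yolk sac over AGM. The counts therefore cannot be read as particular to the members. The same yolk sac cells recurred. In the log2 ratio of reads of short to long members, AGM cells ranged from -2.01 to -0.57 (median -1.35) and yolk sac cells from -3.72 to -0.99 (median -2.68). Cells 1 to 7, 10, 13 and 15 of the yolk sac, 10 in all, were below the lowest AGM cell. Short members held 18.2% of member reads in AGM, 12.8% in yolk sac, 16.5% in liver at E12.5 and 15.8% at E14.5.

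On the total share, too, yolk sac cells fell into sets. The 10 cells with the low short-to-long ratio had ribosomal protein shares of 4.54% to 8.62%, and the other 6 had 10.99% to 13.6%, with no overlap. Both measures use the same reads, so they are not independent. The 10 cells had 3682 to 10823 genes detected and the other 6 had 2675 to 5494. All 7 yolk sac cells with a Cdh5 read were among the 10, while 3 of the 9 without one were. Cell 7 had only 1 such read. Cdh5 is 1 of the 7 endothelial markers, and their summed level overlapped between the sets. It was 0.85 CPM (cell 10) to 1173 CPM (cell 2) in the 10 cells and 0 (cell 16) to 438 CPM (cell 8) in the other 6. The part of the number of genes detected, of endothelial transcripts or of library making in this split was not tested. Across AGM cells the short-to-long ratio and the share also rose together (r = 0.69, rho = 0.73, n = 48 cells that share both quantities' reads).

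**Figure D3:**
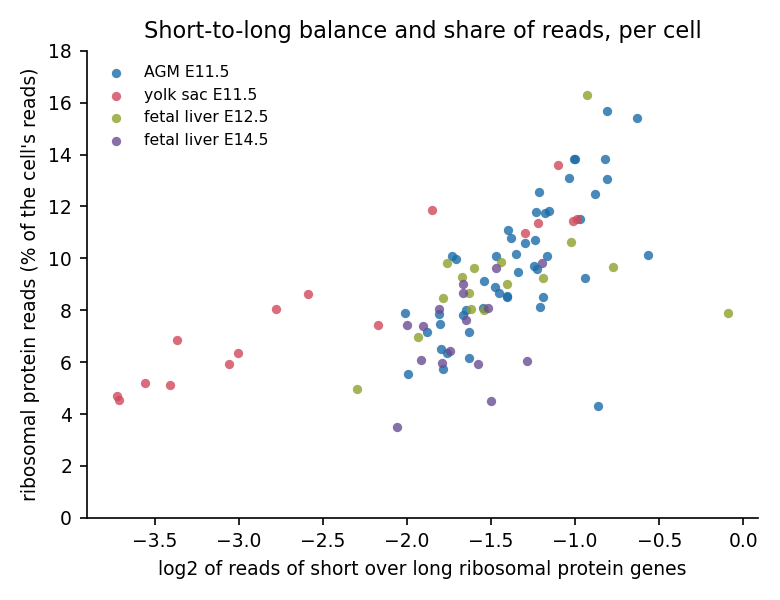
Share of each cell's reads from ribosomal protein genes (vertical axis, %) against the log2 ratio of reads of the 26 short to the 26 long members (horizontal axis). Each point is 1 cell, coloured by group. The 10 yolk sac cells below the lowest AGM cell (-2.01) lie at shares of 4.54% to 8.62%, the other 6 lie among the AGM cells, and the E12.5 point at -0.09 is the cell with 1011 genes detected.

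Between E12.5 liver and AGM the set as a whole differed little. The median log2 ratio was -0.10 over the 80 members and -0.20 over all 15239 genes, with 24 members above 0 and 56 below. Over the 3640 other genes with a mean of at least 50 CPM it was 0.03, so the members lay below genes of higher level. No member passed 2-fold in either direction, against 15.6% of all genes higher and 26% lower. At 1.5-fold 1 member was lower, against 38.1% of all genes. Spearman's rho with coding length was 0.41 (0.35 with transcript length, and 0.45 without the cell with 1011 genes). The comparison uses the same AGM cells as that of the yolk sac.

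Rps21, a short member of the small subunit, had the lowest ratio, -0.63. Its AGM cells ranged from 51.8 to 639 CPM (median 178.6) and its E12.5 cells from 0 to 839 CPM (median 122), with 4 of 16 below the lowest AGM cell. Pooled levels were 189.6 CPM in AGM and 123 CPM in E12.5 liver. Without the E12.5 cell with 1011 genes the log2 ratio was -0.74. Rplp1 followed at -0.48, Rpl22 at -0.38, Rps29 at -0.37, Rpl38 at -0.36 and Rpl37a at -0.35.

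At the other end were Rpl7l1 (0.34) and Rpl32 (0.22), then Rpl10a (0.16), Rpl14 (0.15) and Rps4x (0.14), the X-linked gene of the small subunit protein eS4. Rpl32 had 794 to 4355 CPM in AGM cells (median 2066) and 548 to 4217 CPM in E12.5 cells (median 2262). The ranges overlapped, and 10 of 16 E12.5 cells were above the AGM median.

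Between E14.5 and E12.5 liver nearly every member was lower at the later stage by a small amount. The log2 ratio was below 0 for 79 of 80 members with a median of -0.39, while over all genes tested 6936 of 15239 were below 0 and the median was 0. No member passed 2-fold, against 18.7% of all genes higher and 18.2% lower at E14.5. At 1.5-fold 18 members were lower, against 26.8% of all genes. For the large subunit 45 of 46 genes were below 0 (median -0.40) and for the small subunit all 31 (median -0.39). With mitochondrial and globin reads left out of the total, the median over members was -0.35. The E12.5 cells are the same as in the comparison with AGM.

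Rps15a, of the small subunit, had the lowest ratio, -0.88. Its E12.5 cells ranged from 185.9 to 1161 CPM (median 572) and its E14.5 cells from 92.4 to 575 CPM (median 318), and 15 of the 16 later cells were below the earlier median. Pooled levels were 569 CPM (558 to 579.9) and 309 CPM (301.2 to 316).

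Rpl32, of the large subunit and a widely used reference gene, followed at -0.82. E12.5 cells ranged from 548 to 4217 CPM (median 2262) and E14.5 cells from 702 to 2645 CPM (median 1259), with 14 of 16 below the E12.5 median. Rps24 was at -0.70, Rpl27a at -0.69, Rps13 at -0.65 and Rpl12 at -0.64.

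Rpl3, which lies near the peptidyl transferase centre, was the single member above 0, at 0.02. Its E12.5 cells ranged from 99.9 to 2996 CPM (median 1937) and its E14.5 cells from 717 to 3345 CPM (median 2076), with 8 of 16 on each side of the E12.5 median. Rplp0 and Rpl7a were at -0.04, Rpl4 and Rps25 at -0.08 and Rps6, the substrate of the S6 kinases, at -0.09. In AGM and yolk sac cells Rpl3 had medians of 2004 and 2145 CPM.

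**Figure D4:**
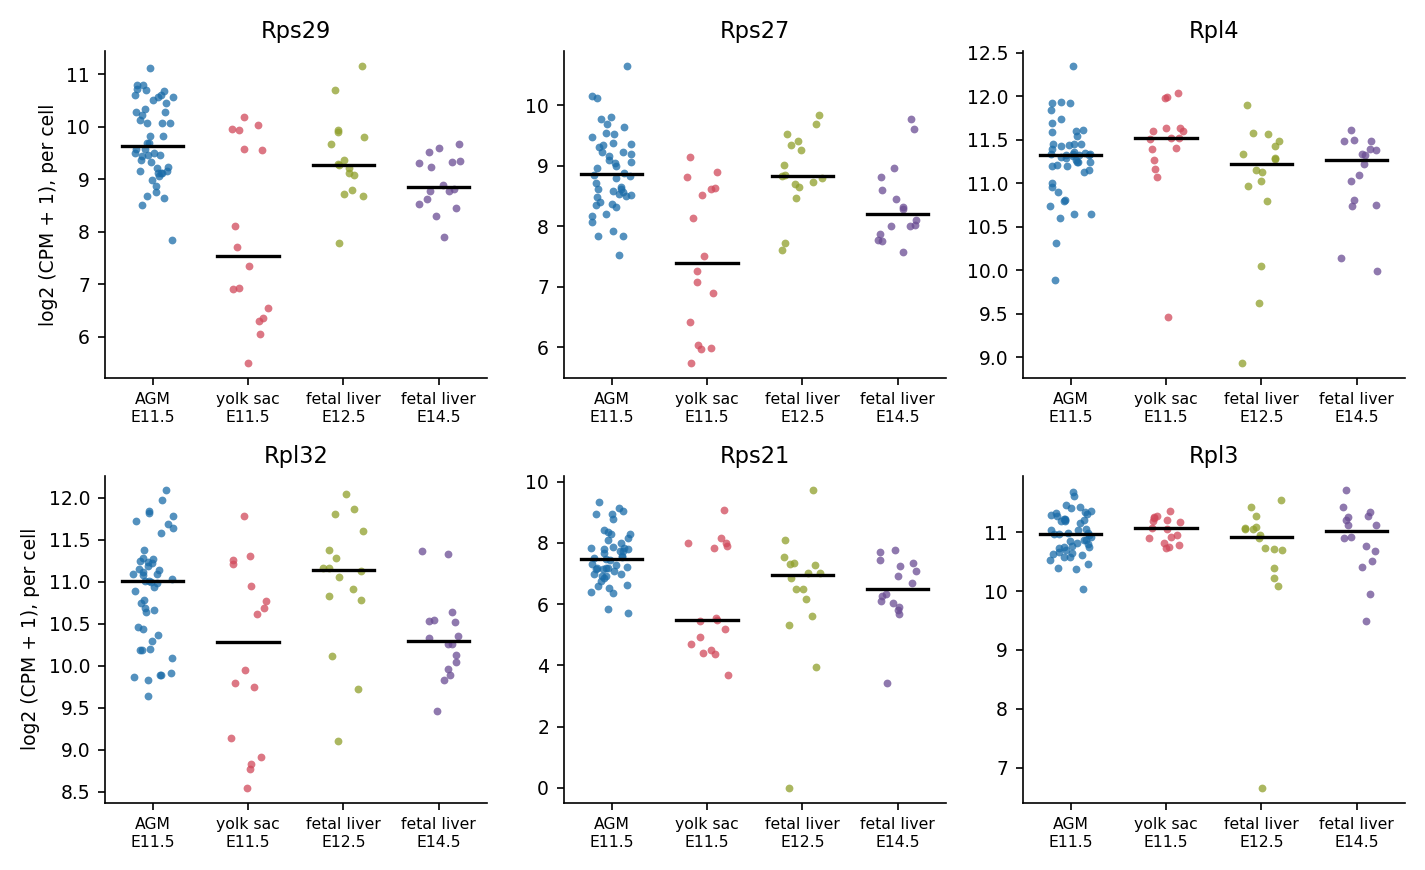
Level of 6 ribosomal protein genes in each cell, as log2 of CPM plus 1 (vertical axes, each with its own range that does not start at 0), by group. Points are single cells spread sideways and bars are medians. Rps29 and Rps27 reach far below the AGM cells in yolk sac, Rpl4 and Rpl3 do not, Rpl32 is lower at E14.5 (median 1259 CPM) than at E12.5 (median 2262 CPM), 4 E12.5 cells of Rps21 lie below every AGM cell, and 1 does for Rpl3.

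The P-stalk is built from Rplp0 and dimers of Rplp1 and Rplp2. Its genes followed their lengths in the yolk sac comparison. Rplp0 (coding length 951 nt) was at 0.06 in yolk sac over AGM, with 3607 and 3768 CPM, whereas Rplp1 (342 nt) was at -0.75, with 803 and 477 CPM, and Rplp2 (345 nt) at -0.83, with 675 and 380 CPM. In E12.5 liver over AGM all 3 were below 0, at -0.20, -0.48 and -0.18. In E14.5 over E12.5 liver they were at -0.04, -0.19 and -0.51.

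The 18 members linked to Diamond-Blackfan anaemia had a median log2 ratio of -0.48 in yolk sac over AGM, with 2 above 0 and 16 below. In E12.5 liver over AGM the median was -0.12, with 4 above and 14 below, and in E14.5 over E12.5 liver it was -0.46, with all 18 below. The medians over all 80 members were -0.35, -0.10 and -0.39, with 68, 56 and 79 below 0. The list was not matched to the members in coding length, which the ratio followed in yolk sac over AGM. It includes the short members Rps29, Rps27 and Rps28, and the part of length in its lower median was not tested. Rps19, the gene most often affected in the disease, had pooled levels of 2352 CPM in AGM, 1624 in yolk sac, 2583 in liver at E12.5 and 1814 at E14.5. Its cells overlapped in every comparison, and 7 of 16 yolk sac cells were below the lowest AGM cell.

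Rpl5 and Rpl11 encode proteins that join the 5S RNA particle, which binds Mdm2 when ribosome assembly fails. Rpl5 was at 1271 CPM in AGM, 1337 in yolk sac, 1078 in liver at E12.5 and 939 at E14.5. Rpl11 was at 814, 674, 859 and 635 CPM in the same order. Rpl5 was therefore higher and Rpl11 lower in yolk sac than in AGM, by 0.07 and -0.27 on the log2 scale, and both ratios are small beside the spread of single cells.

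Of the paralogues, Rps27l stood out in yolk sac by its share of the reads of the pair with Rps27. Its pooled share was 50.2% in AGM (exact 95% interval 49.7 to 50.6), 65.2% in yolk sac (64.4 to 66.0), 48.6% in liver at E12.5 (47.8 to 49.3) and 53.2% at E14.5 (52.3 to 54.0). Single AGM cells ranged from 27.4% to 67.5% (median 50.3%) and yolk sac cells from 37.9% to 79.0% (median 66.2%), so the ranges overlapped, and 13 of 16 yolk sac cells were above 50% against 27 of 48 AGM cells. Both genes have coding sequences of 252 nt. Rps27 had a log2 ratio of -1.18 and Rps27l, a target of p53, of -0.28, and Rps27l had the highest ratio of the 26 short members. Reads that fit both genes of a pair could be assigned to either or dropped, since the counting settings are not given in the sources used here, so the shares are uncertain to that extent.

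Rpl22l1, the paralogue of the RNA-binding protein Rpl22, took 46.1% of the pair's reads in AGM, 47.3% in yolk sac, 48.5% in liver at E12.5 and 48.7% at E14.5. Single cells ranged from 23.9% to 76.2% in AGM and from 21.5% to 82.1% in yolk sac, and the differences between groups were small beside that spread. Rpl7l1 took 13.6% of the pair's reads with Rpl7 in AGM, 19.2% in yolk sac, 18.5% in liver at E12.5 and 15.6% at E14.5. Its share in yolk sac cells ran from 7.42% to 31.5%. The E12.5 cell with 1011 genes was at 99.6% of 496 pair reads, and without it the E12.5 share was 17.46%.

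**Figure D5:**
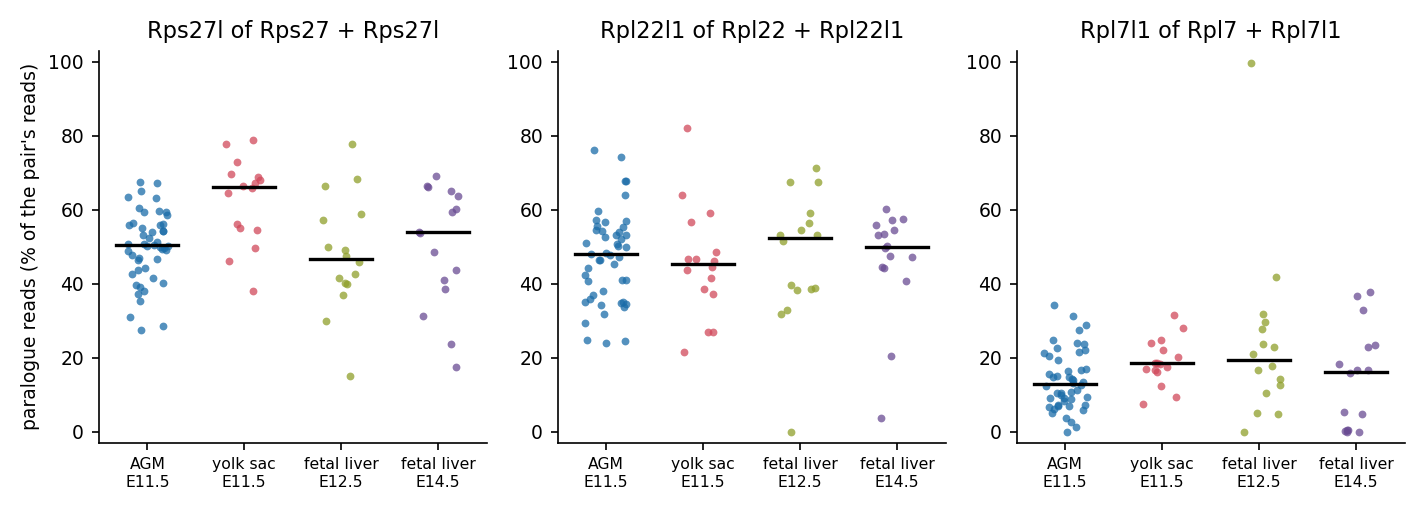
Reads of 3 paralogues as a share of the reads of the paralogue and its main gene (vertical axes, %), in each cell by group, with the median as a bar. Rps27l has a median of 66.2% in yolk sac and 46.7% to 53.9% in the other groups, while the medians of Rpl22l1 lie between 45.3% and 52.3% and those of Rpl7l1 between 12.95% and 19.5%.

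Rpl7l1 also moved least with the rest of the set. Each member's level, as log2 of CPM plus 1, was set against the summed share of the other members. For Rpl7l1 this gave r = -0.03 over the 48 AGM cells and r = -0.47 over the 16 E14.5 cells, the lowest of the 80 members in both groups. The median r over members was 0.82 in AGM, 0.89 in yolk sac, 0.54 in liver at E12.5 and 0.74 at E14.5. In yolk sac the lowest was Rpl3, at -0.28, and in E12.5 liver Rpl4, at -0.08. The cells share the total of reads as denominator, and these values are descriptions.

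Genes that are translated with the ribosomal proteins gave a different order. A list of 19 other TOP mRNAs, of elongation factors, initiation factor 3 subunits and the like, had a median log2 ratio of 0.17 in yolk sac over AGM, with 12 above 0. It had -0.29 in E12.5 liver over AGM, with 14 below 0, and -0.18 in E14.5 over E12.5 liver, with 12 below. Eef1a1, which encodes the elongation factor that brings aminoacyl-tRNA to the ribosome, was at -0.04, -0.10 and -0.18 in these comparisons. Npm1, a nucleolar chaperone of ribosome assembly, was at 0.40, 0.05 and -0.33. The list was not matched to the members in coding length, which the ratio followed in yolk sac over AGM. In that comparison the 26 long members had a median of -0.03 and the 2134 other genes above 900 nt had 0.16. The part of length in the contrast between the list and the members was not tested.

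Some ribosomal genes that the naming rule leaves out can be set beside the members. Fau, whose product is cleaved to the ribosomal protein eS30, was at -0.46 in yolk sac over AGM, and Rpl36al was at -0.44. Rack1, whose product sits on the small subunit head, was at 0.16. In E14.5 over E12.5 liver, Rack1 was at -0.35, Fau at -0.48 and Rpl36al at -0.58.

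Members with a pyrimidine run at the annotated start had a median log2 ratio of -0.51 in yolk sac over AGM (n = 24). Those with a start site where the search found no such run had -0.31 (n = 36). In E12.5 liver over AGM the medians were -0.11 and -0.13, and in E14.5 over E12.5 liver -0.43 and -0.36. Of the members with a run 11 of 24 were short, against 10 of 36 without, so length and the run are mixed in the first comparison.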

How the data were processed

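Single cells were sorted 1 to a well, cDNA was made with a SMART-Seq kit, and libraries were cut and tagged by a transposome and amplified with 12 PCR cycles, per the labels' protocols. The values are raw read counts by gene, deposited by the authors as 1 table whose 96 columns were all matched to cells by name. FastQC, Trimmomatic 0.36, STAR and HTSeq and the build mm10 are named in the submitters' processing notes. The annotation release, the strand setting and the handling of reads that map to several genes are not given in the sources used here, so reads shared between paralogues or with pseudogene copies are uncertain. No molecular identifiers are named, so reads are not independent molecules.

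Of 19949 table rows, 113 repeated a symbol and were summed into it, leaving 19836 genes, of which 15239 had at least 30 reads. A minimum of 1000 genes per cell removed 0 cells, and 0 pairs of columns were identical. Counts were summed within each group and divided by the group's total, as CPM, and 1 CPM was added before log2 ratios. Pooled levels have exact 95% Poisson intervals and shares exact Clopper-Pearson intervals. Past 2-fold means a log2 ratio of at least 1 in size. The calculation was tested on simulated data. Coding and transcript lengths are those of GENCODE M21, taking the shortest complete principal transcript. Python 3.11.15, pandas 2.3.3, numpy 2.4.6, scipy 1.17.1 and matplotlib 3.10.9 were used.

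Named genes were the paralogues, the P-stalk genes and Rpsa, the Diamond-Blackfan list, the 5 members with the most reads, and the 6 highest and 6 lowest ratios in each comparison among members with at least 100 reads over both groups and a read in 25% of the cells of the higher group. A few genes chosen this way are not reported here. Other genes named in the text, among them the member Rpl41 and Rpl36al, which the rule leaves out, were chosen after their values were seen. So were the length classes, the relation with length, the split of yolk sac cells by Cdh5 and the start-site search. The members and lists were chosen with earlier results of these data known. The paralogues Rpl10l and Rps4l were not analysed here.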

Additional observations from a re-analysis of the deposited data

How the results depend on the processing

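No paired analysis was possible because the cells of a group carry only a running number and no animal or litter. The order of the shares, AGM, E12.5 liver, yolk sac and E14.5 liver from high to low, was the same in every setting that gave all 4. They were 9.36%, 9.02%, 7.93% and 7.02% in that order, 9.76%, 9.15%, 8.35% and 7.14% as means over cells, 9.42%, 9.09%, 7.98% and 7.26% without mitochondrial and globin reads, and 9.46%, 9.25%, 8.23% and 7.13% without the deepest cell of each group. With at least 2000 genes per cell E12.5 liver was at 9.04%, and AGM cells 1 to 16 alone were at 9.13%. Leaving out each cell in turn gave 9.27% to 9.47% for AGM, 8.65% to 9.25% for E12.5 liver, 7.67% to 8.23% for yolk sac and 6.84% to 7.24% for E14.5 liver. The median log2 ratio in yolk sac over AGM was -0.30 as means over cells, -0.30 without the deepest cells and -0.26 with median-of-ratios scaling, and -0.44 to -0.28 without single cells. In E12.5 liver over AGM it was -0.13 as means over cells, and -0.17 to -0.055 without single cells. In E14.5 over E12.5 liver it was -0.35 without mitochondrial and globin reads, -0.43 without the deepest cells, and -0.45 to -0.34 without single cells. The 5 members more than 2-fold lower in yolk sac became 3 without the deepest cells or with median-of-ratios scaling, and 22 at 1.5-fold, against 35.5% of all genes tested. At 1.5-fold 1 of 80 was lower in E12.5 liver than in AGM, against 38.1% of all genes, and 18 were lower in E14.5 than in E12.5 liver, against 26.8%. The first count was 3 without yolk sac cell 1, 2, 4, 6, 7 or 10, 8 without cell 8, 9 without cell 9, 12 or 16, 10 without cell 14 and 11 without cell 11. The rank correlation with coding length stayed between 0.87 and 0.91 in yolk sac over AGM without single cells, and was 0.65 with transcript length. In E12.5 liver over AGM it was 0.27 as means over cells and 0.32 to 0.52 without single cells. In E14.5 over E12.5 liver it was 0.45 as means over cells, 0.14 with transcript length and 0.19 to 0.36 without single cells. The causes were not tested. Of 864 ratios of 48 named members under the other settings, 0 moved by more than 1.5 times, and of 7680 ratios with 1 cell left out, also 0. The largest shifts in log2 were 0.35 and 0.25. The limit of 0.585 in log2 is larger in size than the median ratio of each comparison, so it does not show that small ratios are stable. Member reads numbered at least 1444102 in each group, so counting error is small beside the spread of cells, and the missing replicate animals limit every comparison.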

Other observations

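The mitochondrial ribosome is built from another gene family, and its 78 genes with Mrpl or Mrps symbols had other values. These genes were not matched to the members in coding length or level, and the part of either in the contrast was not tested. They took 1.29% of reads in AGM, 1.39% in yolk sac, 1.37% in liver at E12.5 and 1.20% at E14.5. Their median log2 ratio was 0.10 in yolk sac over AGM, with 48 above 0 and 30 below, and 0.09 in E12.5 liver over AGM, with 47 above and 31 below. In E14.5 over E12.5 liver it was -0.19, with 30 above and 48 below, so the E14.5 cells were on the lower side for both families.

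Pseudogene rows named after cytosolic members held few reads, between 0.02% and 0.03% of the number of member reads in every group. The 24 proliferation genes had a median log2 ratio of 0.45 in yolk sac over AGM, with 22 above 0, and of 0.59 in E14.5 over E12.5 liver, with 16 above 0. In E12.5 liver over AGM it was 0.40, with 15 above and 9 below. Of the 80 ribosomal protein genes, 68 were below 0 in yolk sac over AGM, 79 in E14.5 over E12.5 liver and 56 in E12.5 liver over AGM. Over all 15239 genes tested, 9116, 6936 and 8784 were below 0 in the same order. These genes are not matched to the members in level or coding length.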
